A study of Mus musculus with 18 samples.

Results

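The 8 genes described here, *Adipoq*, *Lep*, *Cfd*, *Retn*, *Fabp4*, *Pparg*, *Cebpa* and *Car3*, are 8 of the 43430 genes counted in myofiber RNA from mouse quadriceps, and all 8 had enough counts to be among the 13596 genes tested. They were listed by name for their place in adipocytes and chosen in part on earlier results of the same counts. Which values were used is not stated, and the rise of *Lep* in females given daily prednisone may be among them. The levels and fold changes of the 8 genes are therefore a description. An adjusted p printed for one of them shows only where it fell among all tested genes. The study treated adult C57BL/6 mice of both sexes with the glucocorticoid prednisone, either every day or once a week, or with vehicle, by intraperitoneal injection for about a month. Mice on the weekly schedule received vehicle on the other days. Sex and treatment gave 6 groups of 3 libraries, 18 in all and 1 mouse to each, which held between 10506661 and 14686654 counts. Myofibers were the material kept back by a filter after the muscle was digested with collagenase II, so fat cells, vessels and other cells that cling to fibers can be included. Muscle RNA was abundant in every library. The summed level of 8 myofiber genes such as *Acta1* and *Ckm* lay between 82631 and 158693 CPM (counts relative to the library size, scaled with TMM factors). That sum does not measure how free the fibers were of other cells. The 8 adipocyte genes summed to 541 to 7509 CPM, or 0.0495% to 0.853% of all counts. A bulk library of this kind cannot tell more adipocytes from more RNA per adipocyte.

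Adipocytes store triglyceride in a lipid droplet and release hormones called adipokines. *Adipoq* encodes adiponectin, which raises insulin sensitivity, *Lep* encodes leptin, the satiety hormone, *Retn* encodes resistin, which opposes insulin action in mice, and *Cfd* encodes adipsin, the serine protease complement factor D. *Pparg* and *Cebpa* encode the pair of transcription factors that drive and maintain fat cell differentiation, and *Fabp4* and *Car3* encode a fatty acid carrier and a carbonic anhydrase that are abundant in fat. *Fabp4* is also made by capillary endothelium and *Car3* by slow muscle fibers, so neither is restricted to adipocytes.

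In the mm10 build, *Adipoq* (ENSMUSG00000022878) lies at chr16:23146536-23158028, *Lep* (ENSMUSG00000059201) at chr6:29060220-29073877, *Cfd* (ENSMUSG00000061780) at chr10:79890853-79892656 and *Retn* (ENSMUSG00000012705) at chr8:3655770-3660110, all on the plus strand. *Fabp4* (ENSMUSG00000062515) lies on the minus strand at chr3:10204088-10208576, and *Car3* (ENSMUSG00000027559) on the plus strand of the same chromosome at chr3:14863512-14872523. *Pparg* (ENSMUSG00000000440) at chr6:115361221-115490401 and *Cebpa* (ENSMUSG00000034957) at chr7:35119293-35121926 each overlap 1 antisense gene. Since the strand setting of the counting is not given in the sources used here, the counts of *Pparg* and *Cebpa* could include reads of those antisense genes. All 8 genes are annotated as protein coding.

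Promoter windows from RefSeq on GRCm38.p6 were matched for 6 of the 8 genes. *Fabp4* and *Car3* had no entry. The 250 bases before the start are printed for *Adipoq*, against which the other members are read, for *Lep*, the member whose level followed it least closely, and for the most downstream of the 3 listed starts of *Pparg*, the fat cell regulator. All 3 are plus strand genes, and capitals mark CCAAT, read on either strand, and the C/EBP-like site TTGCNNAA, the letters recognized by the protein family to which *Cebpa* belongs.
Adipoq, chr16:23146286-23146535: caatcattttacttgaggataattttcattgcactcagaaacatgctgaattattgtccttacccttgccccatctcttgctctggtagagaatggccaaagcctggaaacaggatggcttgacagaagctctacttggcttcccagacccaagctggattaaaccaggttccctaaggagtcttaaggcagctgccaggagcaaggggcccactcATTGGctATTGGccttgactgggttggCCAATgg
Lep, chr6:29059971-29060220: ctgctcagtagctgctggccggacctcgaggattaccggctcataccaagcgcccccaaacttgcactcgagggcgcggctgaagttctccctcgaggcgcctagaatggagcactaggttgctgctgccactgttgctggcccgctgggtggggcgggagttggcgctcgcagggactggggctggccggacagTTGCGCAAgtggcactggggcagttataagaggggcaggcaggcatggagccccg
Pparg, chr6:115421816-115422065: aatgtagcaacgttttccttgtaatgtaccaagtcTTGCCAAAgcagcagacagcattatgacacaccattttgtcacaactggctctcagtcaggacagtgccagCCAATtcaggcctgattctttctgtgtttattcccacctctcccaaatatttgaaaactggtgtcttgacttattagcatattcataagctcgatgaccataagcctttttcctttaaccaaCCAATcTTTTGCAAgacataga
The *Adipoq* window held CCAAT 3 times, at -34 and -27 on the minus strand and at -7 on the plus strand, but no C/EBP-like site. The *Lep* window held 1 C/EBP-like site at -55, which reads the same on both strands, and no CCAAT. The *Pparg* window held both, with CCAAT at -144 and -22 and C/EBP-like sites at -215 and -16, and no base was shared between matches. Of 32851 promoter windows of 250 bases before and 50 after a start, 37.4% held CCAAT and 10.8% held TTGCNNAA. The glucocorticoid half-site TGTTCT, present in 19.0% of all windows, was not found in any window of the 6 matched genes on either strand. The nuclear receptor half-site AGGTCA, held by 16.3% of windows, was found at the other starts of *Pparg*, at -28 or -9. The TATA box TATAAA, held by 13.6% of windows, was found at -30 of *Cebpa* and at -29 of 1 start of *Pparg*. The GC box GGGCGG, held by 35.7% of windows, was found at -98 of *Lep* and at the other starts of *Pparg*. The *Cfd* and *Retn* windows held none of the 6 motifs. A match is a description of letters, not of a bound site.

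Among the weekly females, 1 library stood apart in its levels of these 8 genes. In weekly females, replicate 2 was close to vehicle for most of the 8 genes, while replicates 1 and 3 were among the highest libraries of the series, so the counts of weekly calls in females and their ratios of means are also given without replicate 2, and ratios without a single library, a check chosen after seeing the data, are given where they move by over 1.5 times.

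Adiponectin RNA was low in vehicle muscle and higher in all 4 prednisone groups. *Adipoq* stood at 4.13, 12.2 and 6.66 CPM in the male vehicle libraries and at 8.81, 11.5 and 10.6 CPM in the female ones. Weekly males reached 21.5, 65.2 and 32.6 CPM and daily males 82.8, 29.0 and 27.3 CPM. Weekly females reached 183, 15 and 331 CPM and daily females 62.4, 52.8 and 203 CPM. No prednisone library fell inside the vehicle range of its sex, although the spread within a treated group was wide, with weekly females at 176 ± 158 CPM (SD, n = 3) against 10.3 ± 1.38 CPM in vehicle. The group means were 5.20 times vehicle in weekly males, 6.06 times in daily males, 17.1 times in weekly females and 10.3 times in daily females. Single libraries set much of these ratios, which were 3.68 in daily males without replicate 1, 5.60 in daily females without replicate 3, and in weekly females 9.61 without replicate 3 and 24.96 without replicate 2.

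Adipsin followed the same course at a higher level. *Cfd* was counted at 32.3, 42.5 and 29.6 CPM in vehicle males, 127, 308 and 126 CPM in weekly males and 409, 147 and 135 CPM in daily males. In females it went from 95.4, 111 and 88.8 CPM in vehicle to 1443, 125 and 2029 CPM in weekly and 414, 257 and 1144 CPM in daily libraries. All treated libraries lay above vehicle of the same sex, and replicate 2 of weekly females was only just above it. The ratio of means was 12.2 in weekly females and between 5.37 and 6.62 in the other 3 prednisone groups. It was 7.95 in weekly females without replicate 3 and 17.6 without replicate 2, 4.06 in daily males without replicate 1 and 3.41 in daily females without replicate 3.

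Resistin was the least abundant of these 3 adipokines per kilobase of transcript. *Retn* stood at 1.84, 4.32 and 2.08 CPM in vehicle males, 7.21, 16.4 and 9.48 CPM in weekly males and 23.1, 10.1 and 7.54 CPM in daily males. Vehicle females were nearly alike at 6.10, 6.19 and 6.09 CPM, and weekly females spanned 96.8, 9.48 and 90.6 CPM and daily females 26.6, 20.3 and 73.5 CPM. Treated and vehicle libraries did not overlap in either sex under either schedule. The ratio of means was 10.7 in weekly females and 15.3 without their replicate 2, 4.94 in daily males and 3.20 without replicate 1, and 6.55 in daily females and 3.82 without replicate 3.

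Leptin was higher than vehicle in treated females and not in treated males. *Lep* had 4, 0 and 5 counts in the female vehicle libraries, or 0.339, 0 and 0.448 CPM. It had 37, 84 and 303 counts in daily females, or 2.84, 5.28 and 18.3 CPM, and 21, 10 and 51 counts in weekly females, or 1.41, 0.957 and 3.93 CPM. Every prednisone-treated female library was above all female vehicle libraries, and the means were 33.6 times vehicle in daily and 8.0 times in weekly females, folds that rest on few vehicle counts. Without replicate 3 of the treated group they were 15.5 and 4.51, without vehicle replicate 3 they were 52.0 and 12.4, and the weekly ratio without weekly replicate 2 was 10.2. In males the vehicle libraries spanned 0.263, 2.84 and 0.729 CPM, and the weekly values of 1.14, 0.865 and 0.697 CPM and daily values of 1.32, 1.26 and 1.17 CPM lay inside that span. The male ratio to vehicle was 0.705 in weekly and 0.978 in daily mice, and it turned on vehicle replicate 2, without which the ratios were 1.82 and 2.52 and the daily log2 fold change of -0.01 became 1.38.

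**Figure D1:**
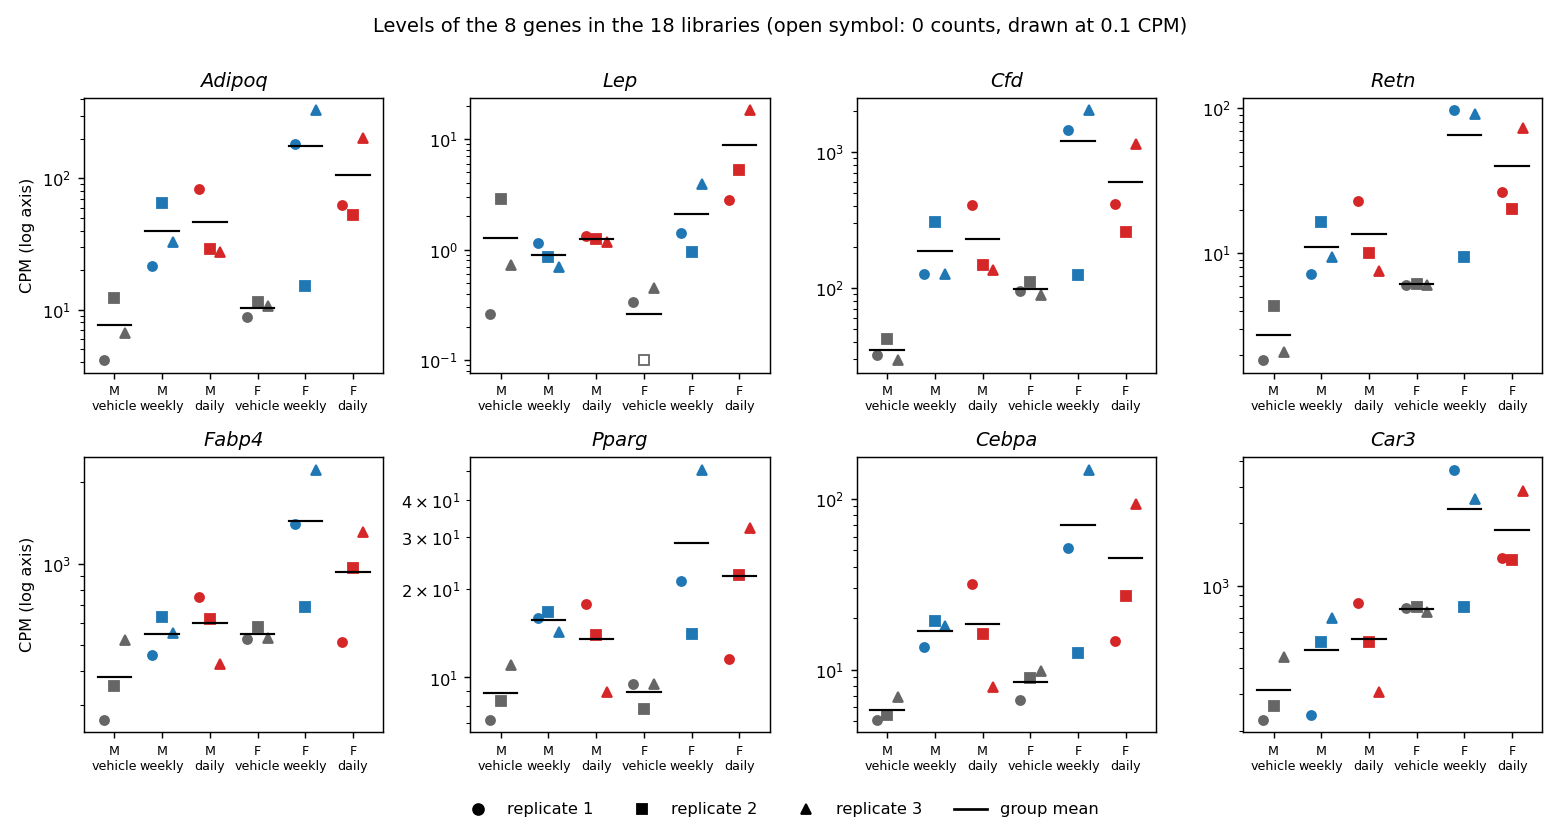
Level of each of the 8 genes in CPM on a log axis, 1 panel per gene, with 3 libraries in each of 6 groups (M, male; F, female), the symbol giving the replicate and the line the group mean. *Adipoq*, *Cfd* and *Retn* sit above vehicle of the same sex in every treated library, *Lep* does so in females only, and weekly female replicate 2 lies near vehicle in most panels.

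Of the transcription factors of fat, *Cebpa* spanned a wider range of levels than *Pparg*. *Cebpa* was counted at 5.09, 5.40 and 6.87 CPM in vehicle males, 13.5, 19.2 and 17.9 CPM in weekly males and 31.7, 16.1 and 7.93 CPM in daily males. In females vehicle libraries had 6.61, 8.91 and 9.85 CPM, weekly libraries 51.3, 12.5 and 148 CPM and daily libraries 14.7, 27.1 and 92.5 CPM. All treated libraries were above vehicle, and the ratios of means ran from 2.92 in weekly males to 8.34 in weekly females. The weekly female ratio was 3.78 without replicate 3 and 11.8 without replicate 2, the daily female ratio was 5.29 and 2.47 without replicate 3, and the daily male ratio was 3.21 and 2.08 without replicate 1.

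*Pparg*, the nuclear receptor that is the master regulator of fat cells, spanned less. Males had 7.20, 8.34 and 11 CPM in vehicle, 15.9, 16.6 and 14.3 CPM in weekly and 17.7, 14 and 8.91 CPM in daily libraries. Females had 9.48, 7.82 and 9.49 CPM in vehicle, 21.2, 14.1 and 50.5 CPM in weekly and 11.5, 22.3 and 32.1 CPM in daily libraries. Groups were separate except in daily males, where replicate 3 lay within the vehicle range. The ratio of means was 1.53 in daily males, 1.76 in weekly males, 2.46 in daily females and 3.20 in weekly females, the last being 1.98 without replicate 3 and 4.01 without replicate 2.

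*Fabp4*, whose protein ferries fatty acids in the cytoplasm, was already abundant in vehicle muscle. Vehicle libraries had 264, 353 and 522 CPM in males and 528, 583 and 529 CPM in females. Males had 457, 636 and 555 CPM on weekly and 753, 624 and 426 CPM on daily prednisone, which overlapped vehicle in both cases. Females had 1402, 691 and 2224 CPM on weekly prednisone, all above vehicle with a ratio of means of 2.63 (3.32 without replicate 2), and 514, 961 and 1309 CPM on daily prednisone, where replicate 1 was below every vehicle library. Daily female replicate 1 was also the lowest library of its group for *Lep*, *Pparg* and *Cebpa*.

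*Car3*, the muscle and fat carbonic anhydrase, was higher in females than in males already under vehicle. Vehicle males had 226, 263 and 455 CPM and vehicle females 781, 790.3 and 743 CPM. Weekly males had 239, 533 and 699 CPM and daily males 823, 533 and 306 CPM, both overlapping vehicle. Weekly females had 3624, 790.5 and 2632 CPM and daily females 1358, 1325 and 2878 CPM, all at or above the highest vehicle library, replicate 2 of weekly females by less than 1 CPM. The ratio of means in weekly females was 3.05, and 4.06 without replicate 2. The weekly female library with the highest *Car3*, replicate 1, also had a summed level of 10 slow fiber genes of 2447 CPM, where the other 17 libraries had 113 to 621 CPM. Daily females, all above vehicle for *Car3*, had slow fiber sums of 132 to 240 CPM beside 119 to 205 CPM in vehicle females. The part of slow fiber genes in the *Car3* level was not tested.

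Per kilobase of transcript the order of the 8 genes in vehicle mice was the same in both sexes but for *Pparg* and *Retn*, which changed places. In vehicle males *Fabp4* had a mean of 424 CPM per kilobase, *Car3* 187, *Cfd* 37.7, *Adipoq* 5.92, *Pparg* 5.01, *Retn* 2.41, *Cebpa* 2.2 and *Lep* 0.392. Vehicle females had means of 609.8 CPM per kilobase for *Fabp4*, 459 for *Car3*, 107 for *Cfd*, 7.97 for *Adipoq*, 5.38 for *Retn*, 5.06 for *Pparg*, 3.22 for *Cebpa* and 0.0804 for *Lep*. *Pparg* thus stood just below *Retn* there, and below *Cebpa* as well in weekly females. In that group the level was 1606 CPM per kilobase for *Fabp4*, 1399 for *Car3* and 1300.3 for *Cfd*, followed by *Adipoq* at 137, *Retn* at 57.6, *Cebpa* at 26.8 and *Pparg* at 16.2. *Lep* was the least abundant member in every group, at 2.70 CPM per kilobase even in daily females.

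The comparison of daily prednisone with vehicle asks how sustained glucocorticoid exposure alters the fiber transcriptome. edgeR's quasi-likelihood test was fitted to all 13596 genes, with Benjamini-Hochberg adjustment over those genes and a call at an adjusted p under 0.05. In daily males 0 of the 8 genes were called, where 6.46% of all tested genes were, although 3 had an unadjusted p under 0.05 (22.8% of all genes) and 4, *Adipoq*, *Cfd*, *Retn* and *Cebpa*, did not overlap vehicle and were higher (16.4% of all genes). The male log2 fold changes were 2.73 ± 0.82 (SE) for *Cfd*, 2.60 ± 0.90 for *Adipoq*, 2.31 ± 0.81 for *Retn* and 1.69 ± 0.81 for *Cebpa*, with edgeR adjusted p values of 0.0609, 0.0994, 0.102 and 0.230. In daily females 1 of 8 was called, *Lep*, where 0.382% of all genes were, with a log2 fold change of 4.95 ± 0.94 and an edgeR adjusted p of 0.0429. Leaving out any 1 of daily replicates 2 and 3 or vehicle replicates 1, 2 and 3 ended that call, with adjusted p values of 0.0728 to 0.208 and log2 fold changes of 3.84 to 5.50. In females 7 of 8 genes, all but *Fabp4*, had an unadjusted p under 0.05 (17.3% of all genes) and were above vehicle without overlap (12.9% of all genes), with log2 fold changes of 3.37 ± 0.91 for *Adipoq*, 2.71 ± 0.75 for *Retn*, 2.62 ± 0.81 for *Cfd* and 2.41 ± 0.79 for *Cebpa*.

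Averaged over the sexes, daily prednisone raised 6 of the 8 genes by this test, where 15% of all genes were called and 7.48% were called higher. *Adipoq* rose by a log2 fold change of 2.99 ± 0.64 (adjusted p = 0.00746, edgeR), *Cfd* by 2.67 ± 0.57, *Retn* by 2.51 ± 0.55, *Lep* by 2.47 ± 0.64, *Cebpa* by 2.05 ± 0.57 and *Pparg* by 0.96 ± 0.30. The mean for *Lep* joins a female change of 4.95 and a male change of -0.01 and describes neither sex. *Car3* at 1.04 ± 0.37 and *Fabp4* at 0.71 ± 0.27 were not called, with edgeR adjusted p values of 0.0706 and 0.0880. The count of 6 fell to 2, *Adipoq* and *Cfd*, with limma-voom, where 13.6% of all genes were called. It fell to 3, *Adipoq*, *Cfd* and *Retn*, with no filter on low counts, where 6.7% were. *Lep* was lost in both (adjusted p of 0.0642 and 0.0529), *Retn* with limma-voom (0.0637), and *Pparg* and *Cebpa* in both. The *Pparg* call also ended when any 1 of 9 libraries was left out and the *Cebpa* call when any 1 of 6 was, whereas the other 4 calls held with each library left out. The median log2 fold change of the 8 genes was 2.26, beside 0.02 over all tested genes.

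Weekly prednisone gave fold changes of like size with no call by edgeR. Weekly against vehicle asks what the intermittent schedule, with the last dose given days before the muscle was taken, did to the same fibers. No member and no gene of the whole table passed in males, in females or in the mean of both (0% in each), while 5.71%, 7.97% and 11% of genes had an unadjusted p under 0.05. In weekly females all 8 genes lay above vehicle without overlap, as did 4.94% of all genes, and the log2 fold changes ran from 1.40 ± 0.39 for *Fabp4* to 4.10 ± 0.94 for *Adipoq*, with adjusted p values of 0.247 to 0.416. Replicate 2 of weekly females was singled out above for its levels of these same 8 genes, so the fit without it is a description. In that fit 7 of the 8 genes were called, where 253 of 13839 genes were (1.83%). *Adipoq* was at 4.62 ± 0.73 (adjusted p = 0.0107, edgeR), *Cfd* at 4.11 ± 0.64, *Retn* at 3.91 ± 0.58 and *Car3* at 2.0 ± 0.48. Without weekly female replicate 1 or replicate 3 instead, no gene of the table was called in that comparison. DESeq2 on all libraries called 6 of 8, beside 152 of 13591 genes (1.12%), whereas limma-voom called 0 of all genes. In weekly males 5 genes, *Adipoq*, *Cfd*, *Retn*, *Cebpa* and *Pparg*, lay above vehicle without overlap, as did 7.76% of all genes, with log2 fold changes of 2.42 ± 0.81 for *Cfd* and 2.38 ± 0.90 for *Adipoq* and adjusted p values of 0.849 by edgeR. The daily and weekly comparisons share the vehicle libraries and are therefore not independent of each other.

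**Figure D2:**
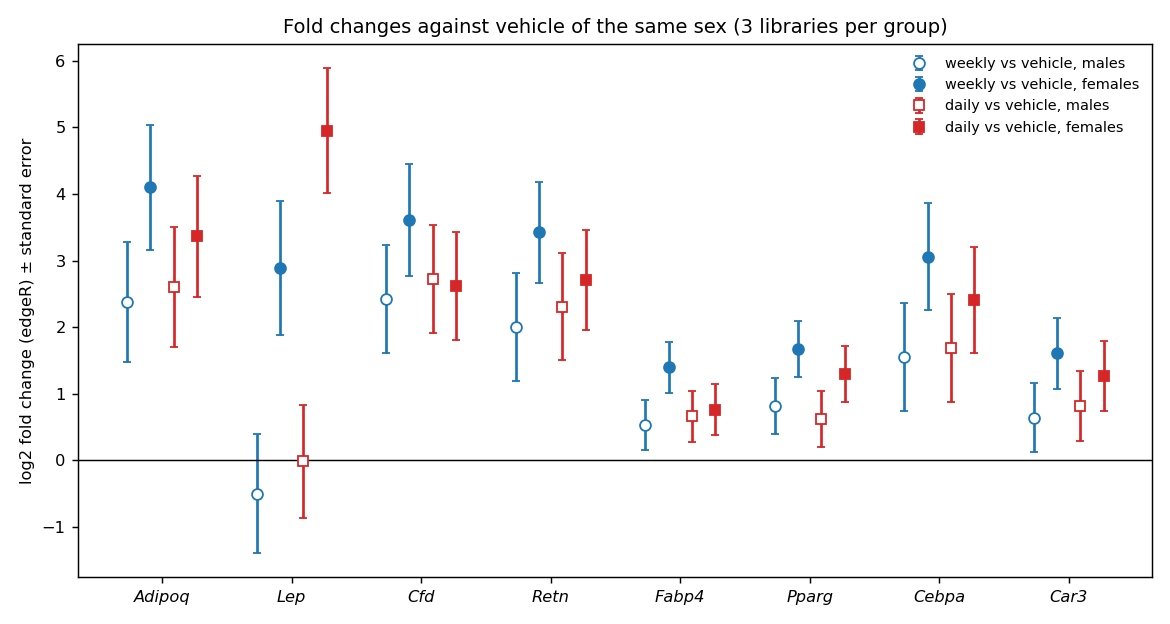
Log2 fold change against vehicle of the same sex from edgeR, with standard errors as bars, for weekly (circles) and daily (squares) prednisone in males (open) and females (filled). All points are above 0 except those of *Lep* in males, at -0.50 on weekly and -0.01 on daily prednisone.

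The direct comparisons of schedules and sexes called none of the 8 genes. Between daily and weekly mice 0 of 8 were called in either sex (0% of all genes), although 13.5% of genes in males and 17.7% in females had an unadjusted p under 0.05, *Lep* in females alone among the 8. The log2 differences were between -0.20 and 0.49 in males. In females *Lep* was higher on the daily schedule by 2.06 ± 0.71 (edgeR adjusted p = 0.152), whereas the other 7 genes ranged from -0.99 to -0.34. Same-numbered weekly and daily female libraries deviated together in these counts. The labels do not say what a number marks, and the count column names of each such pair carry different numbers. With the number as a block in those 6 libraries, a check chosen after seeing the data, the *Lep* difference was 1.92 ± 0.50. Its edgeR adjusted p was 0.0466, where 522 genes were called (3.84% of all genes). Since the block was picked from the same counts, that p is a description only. In males all daily *Lep* values were above all weekly ones, as for 11.9% of genes, with means of 1.25 and 0.902 CPM. In females none of the 8 genes was higher without overlap (9.83% of all genes), *Lep* included.

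The sex difference of the response was tested as an interaction. *Lep* had the largest of the 8, with the daily response higher in females by a log2 difference of 4.96 ± 1.30 and an edgeR adjusted p of 0.889, where no gene of the table was called (0%) and 4.69% had an unadjusted p under 0.05. For the other 7 genes the daily response of females minus that of males ran from -0.11 ± 1.08 for *Cfd* to 0.76 ± 1.22 for *Adipoq*. For the weekly response all 8 differences were positive, from 0.86 to 3.39, with edgeR adjusted p values of 1 throughout, and again 0% of genes were called and 2.63% had an unadjusted p under 0.05. The standard errors of 0.54 to 1.37 leave room for sizeable differences in either direction for most members.

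In vehicle mice 4 of the 8 genes, *Car3*, *Cfd*, *Fabp4* and *Retn*, were higher in all 3 females than in all 3 males, as were 9.66% of all genes, and none was called (0.765% of genes were called, and 10.4% had an unadjusted p under 0.05, among the members *Car3*). *Cfd* was higher in females by a log2 difference of 1.5 ± 0.79, *Car3* by 1.29 ± 0.53 and *Retn* by 1.16 ± 0.83, with edgeR adjusted p values of 0.528, 0.393 and 0.658. *Adipoq* and *Pparg* were near each other in both sexes, at 0.43 ± 0.90 and 0.02 ± 0.43, and *Lep* was at -2.15 ± 1.09.

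Relative to *Adipoq* in the same library, group means of *Cfd* and *Retn* moved less under prednisone than those of *Cebpa*, *Pparg*, *Fabp4* and *Car3*. Neither kept its proportion in daily females, which held less of both per *Adipoq* count than any vehicle female. Weekly females also held less *Cfd* per *Adipoq* count than any vehicle female, while their *Retn* proportion overlapped vehicle. For every 100 *Adipoq* counts, daily male libraries held 493, 508 and 495 counts of *Cfd*, and the 3 values differed by less than those of any other group. Male vehicle libraries held 783, 349 and 444 and weekly males 591, 472 and 386 *Cfd* counts per 100. The proportion of these 2 RNAs thus overlapped between male groups while the *Adipoq* level did not overlap vehicle. In females the proportion was higher in vehicle, at 1084, 968 and 841, than in the treated libraries. It was 789, 829 and 612 in weekly and 664, 487 and 563 in daily females. *Retn* held 31.2 to 44.7 counts per 100 in vehicle males and 53.8 to 69.2 in vehicle females, and 36.2 to 42.6 in daily females. Weekly females held 53.0, 63.1 and 27.4 counts of *Retn* per 100. *Lep* varied most, from 23.4 counts per 100 in male vehicle replicate 2 to 0 in female vehicle replicate 2. Its proportion was 3.85, 0 and 4.24 in vehicle females, 0.77, 6.37 and 1.19 in weekly females and 4.55, 10 and 9.01 in daily females. *Cebpa*, *Pparg*, *Fabp4* and *Car3* had lower group means relative to *Adipoq* under prednisone, the log2 ratio of *Fabp4* going from 5.73 ± 0.15 (SD, n = 3) in vehicle females to 3.30 ± 0.78 in daily females and from 5.71 ± 0.75 to 3.86 ± 0.63 in males. That of *Cebpa* was -0.27 in vehicle, -1.10 in weekly and -1.34 in daily males, and -0.29, -1.09 and -1.39 in the same female groups.

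**Figure D3:**
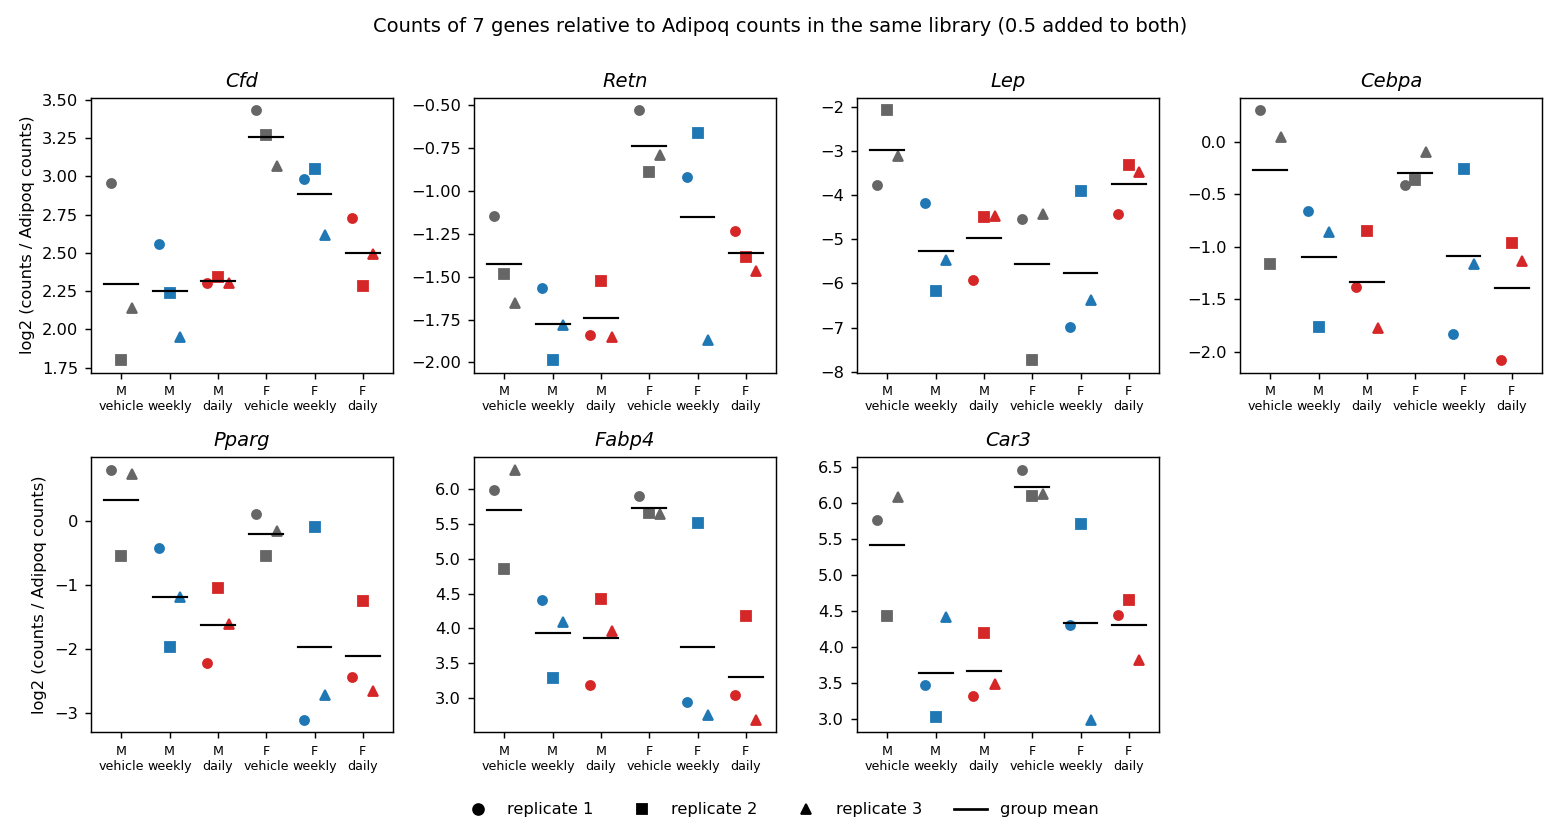
Log2 ratio of counts of each of 7 genes to counts of *Adipoq* in the same library (0.5 added to both), by group, the symbol giving the replicate and the line the group mean. *Cfd* and *Retn* lie within about 1 log2 unit of a constant proportion within each sex, although daily females are below vehicle females for both. Weekly females are below vehicle females for *Cfd*. *Lep* spreads most, and *Fabp4*, *Pparg*, *Cebpa* and *Car3* have lower group means against *Adipoq* in the treated groups.

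Across the 18 libraries, which share groups and scaling, log2 levels followed *Adipoq* with Pearson r of 0.969 for *Retn*, 0.967 for *Cfd*, 0.939 for *Cebpa*, 0.875 for *Pparg*, 0.849 for *Fabp4*, 0.767 for *Car3* and 0.691 for *Lep*. Within the 6 vehicle libraries alone r was 0.848 for *Retn*, 0.643 for *Cfd*, 0.592 for *Fabp4*, 0.526 for *Cebpa*, 0.516 for *Car3* and 0.166 for both *Pparg* and *Lep*, so the values over all libraries include the differences between groups. The closest pair was *Cfd* and *Retn*, with r of 0.990. The slope on *Adipoq* in log2 units was 0.95 for *Cfd*, 0.89 for *Retn* and 0.71 for *Cebpa*, but 0.36 for *Pparg* and 0.35 for *Fabp4*. Among all tested genes the levels most like *Adipoq* over the 18 libraries were those of *Acp5*, *Cdo1*, *Cidec*, *Ces1f* and *Lgals12*, with r of 0.975 to 0.981. Those most like *Fabp4* were *Sfxn1*, *Ppm1m*, *Lipe*, *Gpx8* and *Cyb5a* (0.938 to 0.964), and those most like *Car3* were *Slc27a1*, *Idh1*, *Aldh2*, *Angptl8* and *Fabp4* (0.887 to 0.910). *Lep* had no match as close, and its nearest were *Suz12*, *Dmxl2*, *Pank3*, *U2surp* and *Fam83a* at 0.792 to 0.838.

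Other genes of the fat cell program were called in the same direction. Of 26 other adipocyte genes of lipid storage and synthesis, 15 were called higher and 0 lower in the daily mean of both sexes, where 7.48% of all genes were called higher, and the median of the 26 was 1.28 beside 0.02 over all genes. The 15 became 6 with limma-voom, where 13.6% of all genes were called. They became 9 without female daily replicate 3 (9.92% of all genes) or without female vehicle replicate 2 (9.64%). The largest were *Cidea*, a lipid droplet protein, at 4.60 ± 1.34, *Adrb3*, the fat cell adrenergic receptor, at 4.50 ± 0.94, *Pck1*, which feeds glycerol synthesis in fat, at 4.01 ± 0.88, and *Plin1*, the coat of the lipid droplet, at 3.60 ± 0.82 (edgeR adjusted p of 0.0332, 0.00647, 0.00838 and 0.0105). *Cidea*, also listed as a brown adipocyte marker below, had 0 to 0.508 CPM in the vehicle libraries. *Adrb3* had 0.263 to 1.61 CPM there, so both folds rest on few vehicle counts. *Plin1* was counted at 2.96, 3.37 and 5.19 CPM in vehicle females and at 62.5, 4.88 and 190 CPM in weekly and 13.1, 42.2 and 143 CPM in daily females, which repeats the library order of *Adipoq* in the weekly group. By edgeR on all libraries none of the 26 was called in males or in females alone, or in any weekly comparison. The shares of all genes called there were 6.46% in daily males, 0.382% in daily females and 0% in each weekly comparison. DESeq2 called 6 in daily males (12% of all genes), 14 in daily females (3.9%), 13 in weekly females (1.12%) and 14 in the weekly mean (1.35%). With the compared groups alone, edgeR called 13 in daily males (12.1%). Without weekly female replicate 2, edgeR called 13 in weekly females (1.83% of all genes) and 10 in the weekly mean (1.26%). Without replicate 1 or replicate 3 of that group it called none. Without overlap, 16 were above vehicle in daily males (16.4% of all genes) and 19 in daily females (12.9%), 14 in weekly males (7.76%) and 11 in weekly females (4.94%), and 1, *Aqp7*, a glycerol channel named here after its values were seen, was below vehicle in daily females.

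**Figure D4:**
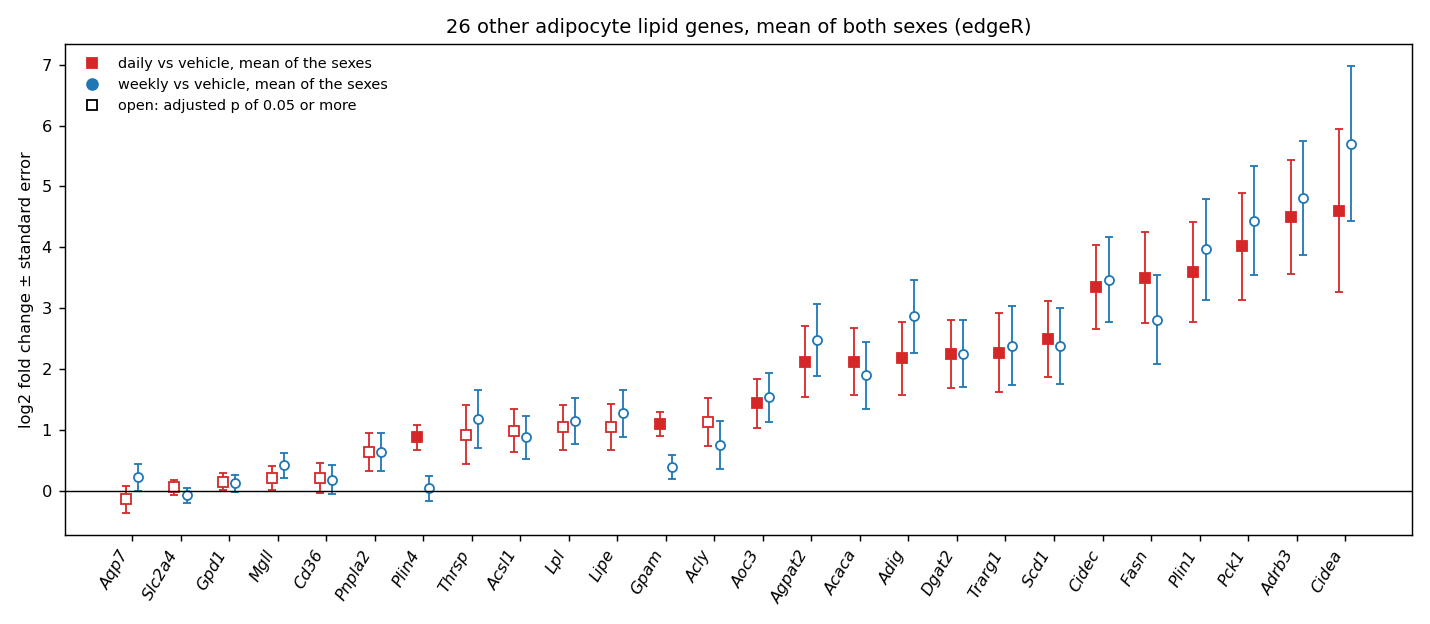
Log2 fold change with standard error, mean of both sexes, of 26 other adipocyte lipid genes on daily (squares) and weekly (circles) prednisone against vehicle, filled where the edgeR adjusted p was under 0.05. The 15 filled points are all daily, and the genes run from *Aqp7* at -0.14 to *Cidea* at 4.60 on the daily schedule.

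Other secreted factors of fat did not move as one. Of 8 tested, 3 were called higher and 1 lower in the daily mean, where 7.48% of all genes were called higher and 15% in either direction. *Rbp4*, the retinol carrier, rose by 2.46 ± 0.50 (edgeR adjusted p = 0.00473), *Angptl4*, an inhibitor of lipoprotein lipase and a glucocorticoid target, by 1.75 ± 0.48 (0.0241) and *Nampt*, also called visfatin, by 0.47 ± 0.12 (0.0144). *Apln*, which encodes the peptide apelin, fell by 0.91 on the log2 scale with a standard error of 0.29 (adjusted p = 0.0437). *Rbp4* was at 1.40, 1.08 and 0.833 CPM in vehicle males and 5.77, 4.59 and 3.82 CPM in daily males.

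The genes through which these products act showed no call. Of 5 adipokine receptors 0 were called in any comparison, where at most 15% of all genes were, in the daily mean. A count of 0 among 5 is near that share. Their medians in the comparisons with vehicle ran from -0.08 to 0.11. *Adipor1*, the adiponectin receptor of muscle, had 275 ± 24.3 CPM (SD, n = 3) in vehicle males, 246 ± 5.10 in daily males, 259 ± 37.6 in vehicle females and 262 ± 54.9 in daily females, and *Adipor2* was at a log2 fold change of 0.24 ± 0.16 in the daily mean. Of 5 partners of adipsin in the alternative complement pathway, 0 were called, again near that share. *C3*, the protein from which the pathway starts, was at 0.57 ± 0.29 in the daily mean, with an edgeR adjusted p of 0.207. Of 10 other transcription regulators of fat, 1 was called in the daily mean, near the share of 15%. It was *Zfp423*, a preadipocyte factor, at 0.45 ± 0.12 (edgeR adjusted p = 0.0194).

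Few close relatives of *Fabp4* and *Car3* were called in the daily mean, where 15% of all genes were. *Fabp3*, the muscle fatty acid binding protein, was at -0.10 ± 0.32 and *Fabp5* at 0.36 ± 0.21 in the daily mean, and the other 4 family members listed had too few counts to test. Of 9 other carbonic anhydrases tested, 1 was called, the mitochondrial *Car5b*, at 2.34 ± 0.65 (edgeR adjusted p = 0.0260). Counts this small are near the share over all genes and do not set these relatives apart.

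Markers of whole cell types were summed to show what moved beside the 8 genes. The sum of 8 white adipocyte markers outside the members, of which none was at 0 in any library, was 74.6 to 125 CPM in vehicle, 153 to 304 in weekly and 157 to 394 in daily males, and 133 to 145 CPM in vehicle, 179 to 1397 in weekly and 211 to 902 in daily females. Its r with the members over 18 libraries ran from 0.65 for *Lep* to 0.98 for *Cebpa*. All 8 of these markers are also among the 26 lipid genes, and the 6 called higher in the daily mean are among the 15 above, including *Adrb3*, *Plin1*, *Cidec* and *Trarg1*. The sum of 6 brown adipocyte markers was 6.58 to 13.5 CPM in the vehicle libraries, 15.3 to 20.4 CPM in treated males, 56.1, 13.6 and 415 CPM in weekly females and 7.45, 49.8 and 75.2 CPM in daily females. *Ebf2* held most of the vehicle sum, with means of 6.97 CPM in males and 9.13 CPM in females. Its mean was 7.15 CPM in weekly males and 8.14 CPM in daily females, and above vehicle in daily males and weekly females. *Ucp1* and *Cidea* had means of 0.0597 and 0.302 CPM in vehicle females. Their means were 110 and 33.7 CPM in weekly and 15.9 and 16.3 CPM in daily females. Group means of *Zic1* were 0.218 to 0.666 CPM. Endothelial sums overlapped between vehicle and treated groups of each sex, at 654 to 1201 CPM in vehicle and 826 to 1288 CPM in treated males and at 1106 to 1159 CPM in vehicle and 506 to 1495 CPM in treated females. Sums of 8 fibroblast and progenitor markers overlapped as well, from 1281 to 2386 CPM in vehicle and 1215 to 2391 CPM in treated males and from 1334 to 2648 CPM in vehicle and 883 to 2510 CPM in treated females. Sums of 8 macrophage markers were 85.2 to 104 CPM in weekly females against 36.9 to 68.9 CPM in vehicle females. Of 10 fast fiber genes, 7 were called lower in the daily mean and 0 higher, where 15% of all genes were called in either direction. Their sum was 132639 to 199387 CPM in vehicle, 107557 to 132431 CPM in weekly and 125385 to 184157 CPM in daily females. Weekly females thus lay below vehicle without overlap, whereas daily females and both treated male groups overlapped vehicle of the same sex. The part of these marker shifts in the levels of the 8 genes was not tested.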

How the data were processed

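Reads of polyA RNA from isolated quadriceps myofibers were aligned and counted per gene by the authors, and the deposited values are whole-number counts with no normalization. The submitters' processing notes name TopHat2 2.1.0, Bowtie2 2.2.6 and HTSeq, and the builds mm10 and mm9, of which mm10 matches the coordinates in the table. The annotation release and strand setting are not given in the sources used here. No column of library values was left unused (0). Total counts of 10506661 to 14686654 per library set the precision, which is lowest for *Lep*.

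Of 43430 gene identifiers, symbols were found for 42462. Counts were fitted with edgeR 4.0.16 in R 4.3.3, with TMM scaling, filterByExpr (minimum count 10), 6 group means over 18 libraries and robust quasi-likelihood F tests. Standard errors were derived from the F statistic, and Benjamini-Hochberg adjustment ran over 13596 genes with a threshold of 0.05. The steps were tested on simulated data. Alternatives used DESeq2 1.42.0 and limma 3.58.1. CPM used TMM-scaled library sizes, log2 values for correlations a prior count of 2, ratios to *Adipoq* 0.5 added counts, and levels per kilobase the longest principal GENCODE M21 transcript. Replicates of a group differed beyond sampling noise. The labels do not state separate batches. The p values weigh a difference between groups against the spread between mice within groups, of which all 6 groups share 1 estimate.

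The 8 genes and all lists were chosen with earlier results of these data known. Genes named from a list were at most the 4 with the largest change among those called in the comparison, or otherwise the 2 most abundant, of which 1 is not reported here. For *Adipoq*, *Lep*, *Fabp4* and *Car3*, the 5 genes with the highest correlation were named.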

Additional observations from a re-analysis of the deposited data

How the results depend on the processing

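Alternatives were another tool (DESeq2, limma-voom), DESeq2 size factors in edgeR, a minimum count of 50, no filter, a fit of the compared groups alone, a replicate block and leaving out each library. Of 719 alternative values for fold changes of the 8 genes, 639 kept their direction and side of the threshold, 42 passed it, 31 lost it and 7 reversed. The reversals were all *Lep* in males: daily (-0.01), 0.59 with limma-voom, 0.017 with no filter, 0.043 with the replicate block and -0.50 to 1.38 when 1 library was left out, and weekly (-0.50), 0.084 with limma-voom and -1.001 to 0.88 when 1 library was left out, the highest in both without male vehicle replicate 2.

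Counts of the 8 genes called moved as follows, with the main count in brackets after the group and the share of all genes called after the alternative. In daily males (0) they were 3 with DESeq2 (12%), 1 with a minimum count of 50 (10.8%, near that share) and 4 with the compared groups alone (12.1%). In daily females (1) they were 6 with DESeq2 (3.9%) and 0 with limma-voom (0.382%), no filter (0.119%), the compared groups alone (0%) or the replicate block (0.0588%). In the daily mean (6) they were 2 with limma-voom (13.6%) and 3 with no filter (6.7%). DESeq2 called 6 in weekly females (1.12%) and 6 in the weekly mean (1.35%), where the main count was 0 in both. Female against male vehicle (0) gave 1 with the compared groups alone (0.963%). Of the 26 lipid genes, daily males (0) gave 6 with DESeq2 (12%), 3 with a minimum count of 50 (10.8%, near that share) and 13 with the compared groups alone (12.1%). Daily females (0) gave 14 with DESeq2 (3.9%) and 3 with a minimum count of 50 (1.88%). The daily mean (15) gave 6 with limma-voom (13.6%). DESeq2 gave 13 in weekly females (1.12%) and 14 in the weekly mean (1.35%), where the main count was 0 in both. Levels scaled by raw totals moved past 1 SD for *Retn* (5.82 CPM) and *Car3* (732 CPM) in vehicle females. The causes were not tested.

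With 1 library left out, the 8 genes gave 0 to 1 calls in daily females, 4 to 7 in the daily mean, 0 to 7 in weekly females and 0 to 6 in the weekly mean, and the 26 lipid genes 0 to 3, 9 to 18, 0 to 13 and 0 to 10. In those fits 0% to 0.91% of all genes were called in daily females and 9.64% to 17.9% in the daily mean. The shares were 0% to 1.83% in weekly females and 0% to 1.26% in the weekly mean. The highest weekly values were those without female weekly replicate 2, the lipid value of 3 that without female daily replicate 1, and the lipid value of 9 that without female daily replicate 3 or female vehicle replicate 2.

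Replicate numbers were shared between groups, but the labels do not say what a number marks. In weekly and daily females the count column names of each same-numbered pair carry different numbers, so these libraries are not shown to be matched. Over 45 same-numbered pairs the correlation of deviations was -0.503 to 0.501, and all 3 pairs exceeded 0.1 in 1 of 15 pairs of groups, weekly and daily females. The replicate block in those 6 libraries, chosen after seeing the data, gave 1 call among the 8 genes, *Lep*, in daily against weekly females (3.84% of all genes). The block over all libraries gave 0 calls in daily females and changed no other count past 1.5 times. *Lep* rests on 0 to 5 counts per female vehicle library, which limits its fold change.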

Other observations

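*Ucp1*, the uncoupling protein of brown fat, was looked at after its values were seen. It was listed at 0 in replicates 1 and 2 of both vehicle groups and at 0.104 CPM in male and 0.179 CPM in female vehicle replicate 3. Weekly males had 6.07, 3.46 and 1.67 CPM, daily males 1.53, 0.189 and 0 CPM, weekly females 23.7, 0 and 307 CPM and daily females 0.538, 20.6 and 26.6 CPM. Weekly female replicate 3, the library with the most *Adipoq* at 331 CPM, held the most *Ucp1*, and replicate 2 of that group, with 15 CPM of *Adipoq*, held none. The edgeR log2 fold change in weekly females was 10.58 ± 2.51 (SE) with an adjusted p of 0.247, and in the daily mean of both sexes 5.84 ± 2.60 with an adjusted p of 0.151. With vehicle libraries at or near 0, these fitted values are not bounds on the change.

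*Cd68*, a lysosomal protein of macrophages, was also picked after its values were seen. It was the only called gene of the macrophage list in the daily mean, where 15% of all genes were called. It had 2.19, 2.06 and 1.35 CPM in vehicle males and 5.84, 7.67 and 4.99 CPM in daily males, and 2.54, 1.74 and 2.69 CPM in vehicle females and 3.46, 7.42 and 4.23 CPM in daily females. In both sexes all daily libraries were above all vehicle libraries, while the summed macrophage list ranged from 55.6 to 72.2 CPM in daily males and from 58.1 to 65.1 CPM in vehicle males. Hemoglobin genes went the other way, with 4 of 5 blood markers called lower in the daily mean, where 15% of all genes were called in either direction. Their sum was 104 to 122 CPM in daily and 116 to 170.0 CPM in vehicle males, and 68.0 to 88.6 CPM in daily and 96.5 to 175 CPM in vehicle females.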
